A study of Mus musculus with 29 samples.

Results

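Voltage-gated calcium channels were examined here through 10 named genes, of 18194 genes with a probe set of their own on the array. The 10 genes were chosen with earlier results of these data known. They comprise 6 pore genes (*Cacna1a*, *Cacna1b*, *Cacna1c*, *Cacna1d*, *Cacna1e* and *Cacna1g*) and 4 genes of auxiliary subunits (*Cacna2d1*, *Cacna2d2*, *Cacnb4* and *Cacng3*). All 27 probe sets of these genes, of 45101 on the array, were followed through 29 single retinal ganglion cells (RGCs). RGCs are the output neurons of the retina, and their subtypes differ in which features of a visual scene make them spike.

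The study recorded the spikes of each RGC in a whole retina under visual stimuli, named its subtype from the responses, drew the soma into a glass pipette, and amplified its cDNA for 1 Affymetrix mouse genome array per cell. All cells came from adult C57BL/6 retinas (C57BL/6J in the study's methods) with no transgene or treatment given in the labels, and all passed through oligo-dT priming, tailing and PCR. The direction-selective (DS) class held 4 ON DS and 4 ON-OFF DS cells, and the alpha class held 2 ON alpha cells, 4 sustained cells named OFF S alpha and 3 transient cells named OFF T alpha. The 12 cells of other subtypes were 2 SbC (suppressed by contrast) cells and 1 each labelled LED (local edge detector), EyeWire 4i, PixON, EyeWire 6sn, OFF high speed selective, J-RGC, ON S non-alpha, EyeWire 6sw, and the orientation-selective ON vOS and ON hOS. Cells are called by subtype and by the number in their sample title. No label names the animal of a cell, so that a group of cells counts as 1 sample, and differences between groups are described with no test and no p-value. What limits every group as a model of its subtype is that it holds 1 to 4 cells, each read once after PCR.

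A calcium channel is built around a pore-forming alpha1 subunit, which carries the current and gives the channel its pharmacological type. *Cacna1a* encodes the P/Q-type pore and *Cacna1b* the N-type pore, which together drive transmitter release at most fast synapses. *Cacna1c* and *Cacna1d* encode L-type pores, *Cacna1e* the R-type pore, and *Cacna1g* a T-type pore that opens near the resting potential and favors burst firing. The alpha2delta subunits (*Cacna2d1*, *Cacna2d2*), which bind gabapentin, and the beta subunits (*Cacnb4*) bring pores to the membrane and tune their gating. *Cacng3* belongs to the gamma family by sequence, but it is best known as an auxiliary subunit of AMPA-type glutamate receptors.

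The values were MAS5 signals on a linear scale with a trimmed mean of 1500 on every array. Detection of a gene in a cell meant a signal of 3000 or more (2 times the trimmed mean), and log2 signals were taken with a floor at 375, or 8.55 on the log2 scale. Where several probe sets name a gene, the brightest of them by mean log2 stood for it. Signals of different genes come from different probes, so levels were compared between cells for each gene and never between genes. The number of genes detected apart from these 10, which stands for library depth, ran from 1182 to 4199 with a median of 2906. It had a median of 2965.5 in DS, 3013 in alpha and 2739 in other cells. Of 13 RGC markers with a value, each cell had between 5 and 13, and *Sncg* and *Uchl1* were detected in all 29 cells. Of 9 rod genes with a value, the cells had between 0 and 9, and 18 cells had 5 or more, among them 3 of 8 DS cells, 6 of 9 alpha cells and 9 of the 12 remaining cells. Averaged over the rod genes, the log2 signal ran from 8.55 to 16.54 in DS cells, from 8.55 to 18.10 in alpha cells and from 8.55 to 19.30 in other cells.

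Each calcium channel gene was detected in 1 to 12 of the 29 cells. *Cacna1a* was detected in 12 of 29 cells (41.4%, exact 95% Clopper-Pearson interval 23.5% to 61.1%), *Cacna2d1* in 11 (37.9%, 20.7% to 57.7%) and *Cacna1b* in 8 (27.6%, 12.7% to 47.2%). *Cacna1c* and *Cacng3* were each detected in 5 cells, *Cacnb4* in 4, *Cacna1g* and *Cacna2d2* in 2, and *Cacna1d* and *Cacna1e* in 1 cell each. None of the 10 genes reached 15 of the 29 cells, while 10.6% of all genes did. The median calcium channel gene was detected in 4.5 cells, the median gene of the array in 1 cell, and 55.0% of all genes in at least 1. *Cacna1a* was detected in more cells than 85.3% of all genes. These intervals cover counting error only, and they take no account of cells that share an animal.

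**Figure D1:**
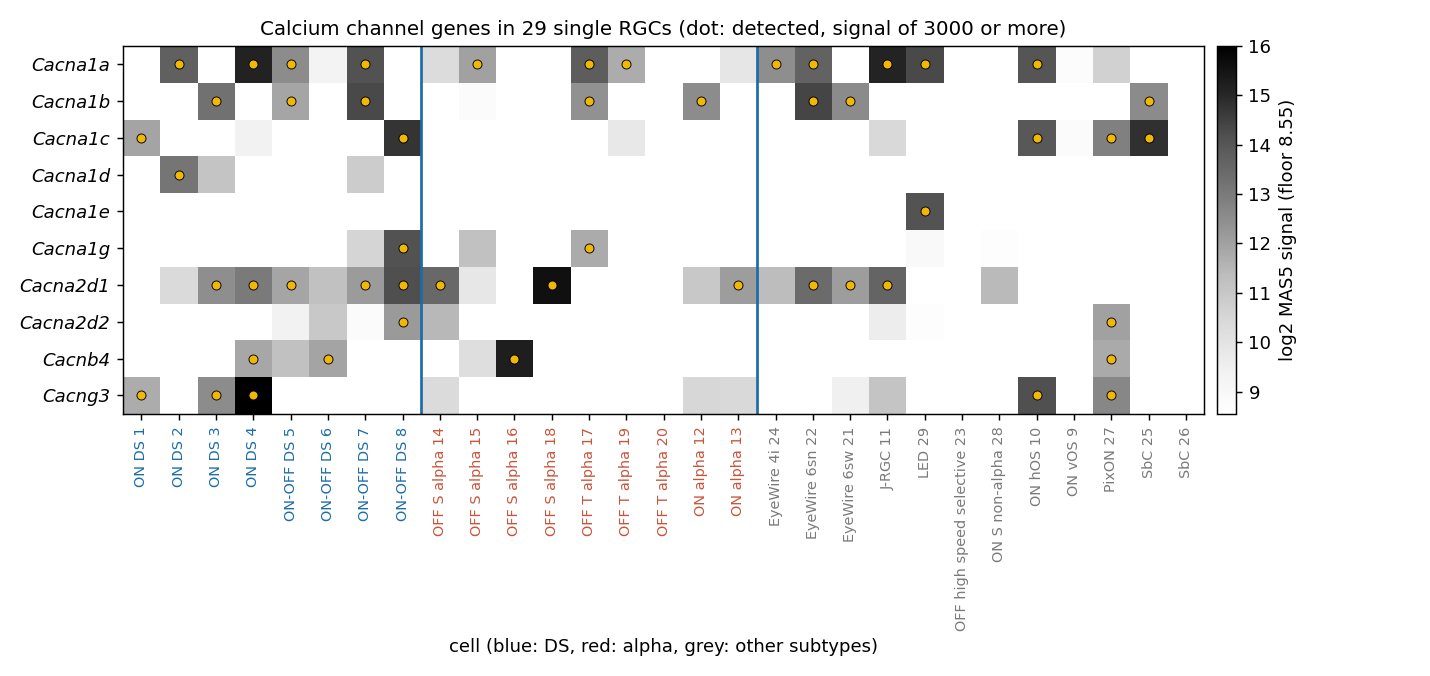
Log2 MAS5 signal of each calcium channel gene (rows) in each of the 29 cells (columns, grouped as DS, alpha and other subtypes by the vertical lines), with a dot where the gene was detected at a signal of 3000 or more. *Cacna1a* has dots in 12 cells and *Cacna2d1* in 11, whereas *Cacna1d* and *Cacna1e* have 1 each.

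A cell had a median of 2 of the 10 genes, with 0 in 5 cells, 1 in 9, 2 in 6, 3 in 6 and 4 in 3 cells. The 3 cells with 4 genes were ON DS 4 (*Cacna1a*, *Cacna2d1*, *Cacnb4* and *Cacng3*), ON-OFF DS 8 (*Cacna1c*, *Cacna1g*, *Cacna2d1* and *Cacna2d2*) and PixON 27 (*Cacna1c*, *Cacna2d2*, *Cacnb4* and *Cacng3*). The 5 cells with none were ON vOS 9, OFF T alpha 20, OFF high speed selective 23, SbC 26 and ON S non-alpha 28. At least 1 of the 6 pore genes was detected in 19 cells, at least 2 in 9 cells, and 3 only in OFF T alpha 17. A pore gene and an alpha2delta gene were detected together in 9 cells, which were 5 of 8 DS cells, 0 of 9 alpha cells and 4 of 12 other cells. An alpha2delta gene was detected without any of the 6 pore genes in 3 cells, all of them alpha (ON alpha 13, OFF S alpha 14 and OFF S alpha 18). ON alpha 13 did pass the threshold for *Cacna1b* at another probe set of that gene. By any probe set this alpha cell thus had a pore gene and an alpha2delta gene together. How often other sets of genes are detected together in each class is not given here. *Cacnb4* joined a pore gene and an alpha2delta gene in 2 cells, ON DS 4 and PixON 27.

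The P/Q-type pore gene *Cacna1a* was detected in all 3 classes. In ON DS cells its signal was 74.9 in cell 1, 13374 in cell 2, 203 in cell 3 and 35053 in cell 4. In ON-OFF DS cells it was 5835 in cell 5, 630.2 in cell 6, 17976 in cell 7 and 6.88 in cell 8. Each DS subtype thus had 2 cells well above the threshold and 2 far below it, and the subtypes overlapped over nearly their whole range. The OFF T alpha cells had 14253 in cell 17, 3456 in cell 19 and 135 in cell 20, and the OFF S alpha cells had 1249 in cell 14, 4064 in cell 15, 45.8 in cell 16 and 189 in cell 18. In ON alpha cells the signal was 136 in cell 12 and 942 in cell 13, both under the threshold. Among other subtypes the signal ran from 66.6 to 34778 with a median of 1024, and it passed the threshold in J-RGC 11 (34778), LED 29 (20341), ON hOS 10 (16743), EyeWire 6sn 22 (12811) and EyeWire 4i 24 (5665). Neither SbC cell had it, with 126 in cell 25 and 66.6 in cell 26.

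For the N-type pore gene *Cacna1b* no cell had a signal between 447.5 and 3822 at the probe set read here, although its other probe sets gave 3485 in ON alpha 13, 3304 in ON DS 1, 1518 in OFF T alpha 19 and 777 in J-RGC 11. Among DS cells ON-OFF DS 7 had 20087.2, ON DS 3 had 9668 and ON-OFF DS 5 had 3822. Of the alpha cells it was detected in ON alpha 12 (5869.8) and OFF T alpha 17 (5448) and in 0 of 4 OFF S alpha cells, whose signals ran from 2.93 to 447.5. Of the other subtypes it was detected in EyeWire 6sn 22 (21519), SbC 25 (6025) and EyeWire 6sw 21 (6011). *Cacna1a* and *Cacna1b* were detected together in 4 cells (ON-OFF DS 5, ON-OFF DS 7, OFF T alpha 17 and EyeWire 6sn 22), which are 4 of the 12 cells with *Cacna1a* and 4 of the 8 with *Cacna1b*.

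The L-type pore gene *Cacna1c* was detected in 2 of 8 DS cells, ON DS 1 (3899) and ON-OFF DS 8 (27446), and in ON hOS 10 (15903), PixON 27 (7286) and SbC 25 (28629). It was detected in 0 of 9 alpha cells, whose signals ran from 3.60 to 881 with a median of 74.5 (interval of the share 0.0% to 33.6%). The DS cells ran from 10.2 to 27446 with a median of 137, so that both classes overlapped. The other L-type gene, *Cacna1d*, was detected in ON DS 2 alone (8932). Signals below the threshold but above the trimmed mean were found in ON DS 3 (2203) and ON-OFF DS 7 (1820.5), and no alpha or other cell exceeded 148. *Cacna1e*, the R-type pore gene, was detected in LED 29 alone (17332) and did not exceed 255 in any other cell. The T-type gene *Cacna1g* was detected in ON-OFF DS 8 (17907) and OFF T alpha 17 (3471), with 2351 in OFF S alpha 15 and 1482 in ON-OFF DS 7.

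The alpha2delta gene *Cacna2d1* reached the threshold in 5 of 8 DS cells (62.5%, interval 24.5% to 91.5%), 3 of 9 alpha cells (33.3%, 7.5% to 70.1%) and 3 of 12 other cells (25%, 5.5% to 57.2%). In ON-OFF DS cells its signal was 3818 in cell 5, 2346 in cell 6, 4532 in cell 7 and 18543 in cell 8, and in ON DS cells it was 100.05 in cell 1, 1323 in cell 2, 5619 in cell 3 and 8343 in cell 4. The ON-OFF DS cells were thus all above the trimmed mean, whereas ON DS cells 1 and 2 were below it. The OFF T alpha cells were all near 0, with 25.8 in cell 17, 169 in cell 19 and 16.5 in cell 20, while the OFF S alpha cells spread from 5.33 in cell 16 and 911 in cell 15 to 11705 in cell 14 and 48693 in cell 18. The ON alpha cells lay between, with 2016 in cell 12 and 4400.0 in cell 13. In other subtypes the signal ran from 5.92 to 12366 with a median of 219, and the cells that passed the threshold were J-RGC 11 (12366), EyeWire 6sn 22 (11004.5) and EyeWire 6sw 21 (4380.1). *Cacna2d2* was detected in ON-OFF DS 8 (4607) and PixON 27 (4073). Its signal was 640.5 in ON-OFF DS 5, 2018 in ON-OFF DS 6 and 447 in ON-OFF DS 7, and 8.89, 89.7, 354 and 75.0 in ON DS cells 1 to 4. The subtypes did not overlap, as was so for 2.09% of the 7113 genes detected in at least 3 cells. *Cacna2d2*, detected in 2 cells, is not one of those genes, so the share is that of an unlike set. Only ON-OFF DS 8 of these cells passed the detection threshold, and the gap between 447 and 354 lies next to the floor.

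*Cacnb4*, the only beta subunit gene among the 10, was detected in ON DS 4 (3704), ON-OFF DS 6 (3901), OFF S alpha 16 (38099.8) and PixON 27 (3572). Its signal was 2361 in ON-OFF DS 5 and 1157 in OFF S alpha 15 and at most 266 in the remaining cells. OFF S alpha 16 stood far above the other detected cells, which lay just past the threshold.

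The pattern of *Cacng3* by polarity was known when these genes were chosen, so it is a description and not independent evidence. Over all 29 cells it was detected in 5 of the 10 cells with ON in their label, and in 0 of 4 ON-OFF cells, 0 of 8 OFF cells and 0 of 7 cells whose label gives no polarity. The share of all genes detected only in ON cells is not given here, so how common such a pattern is cannot be told. The cells were ON DS 1 (3432), ON DS 3 (5877), ON DS 4 (65493), ON hOS 10 (18225) and PixON 27 (6479). The ON cells without it were ON DS 2 (212), ON vOS 9 (229), ON alpha 12 (1401), ON alpha 13 (1354) and ON S non-alpha 28 (19). The 4 ON-OFF DS cells had signals from 4.22 to 17.3, and OFF cells reached 1275 in OFF S alpha 14. J-RGC 11, at 2204, had the highest signal below the threshold. The single cell with *Cacna1d*, ON DS 2, was an ON cell too, whereas *Cacna1a* was detected in 3 of 10 ON, 2 of 4 ON-OFF, 3 of 8 OFF and 4 of 7 other cells, and *Cacna2d1* in 3, 3, 2 and 3 of them.

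**Figure D2:**
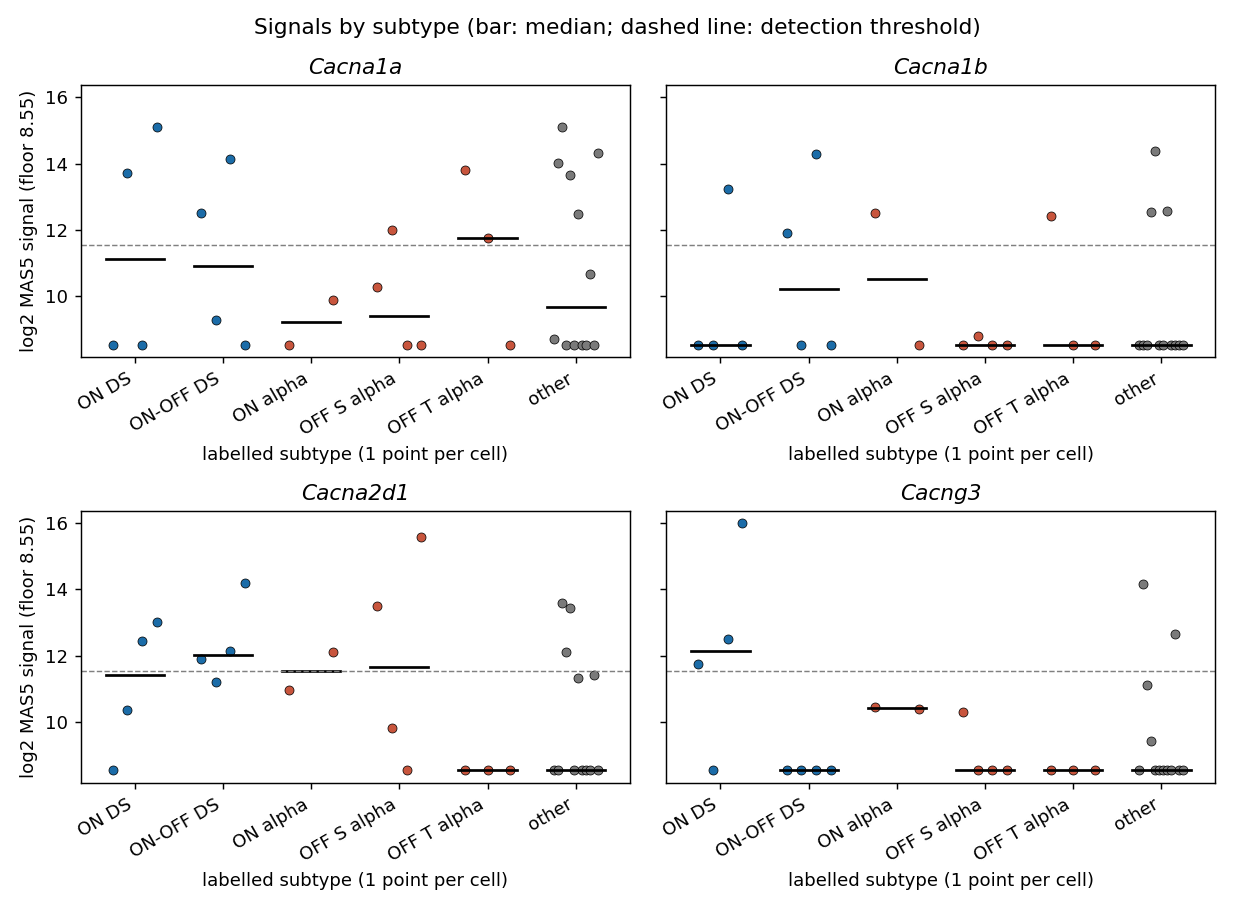
Log2 MAS5 signal of *Cacna1a*, *Cacna1b*, *Cacna2d1* and *Cacng3* (1 point per cell) in the DS and alpha subtypes and in the 12 other cells, with a bar at each median and a dashed line at the detection threshold. All 3 OFF T alpha cells sit at the floor for *Cacna2d1*, and all 4 ON-OFF DS cells for *Cacng3*.

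The comparison of DS with alpha cells asks which of these genes differ between the classes. Over all 10 genes, 22 of 80 gene and cell pairs were detected in DS cells (27.5%), 10 of 90 in alpha cells (11.1%) and 19 of 120 in other cells (15.8%). The classes were alike over the 10004 genes detected in at least 1 cell, with 28.4% of pairs detected in DS, 29.5% in alpha and 26.5% in other cells. The share of cells with the gene was higher in DS than in alpha cells for 9 of the 10 genes and lower for 0, and *Cacna1e* was detected in neither class. Over the 10004 genes, the share was higher in DS cells for 43.8% and lower for 43.0%. This count was chosen after the values were seen, and the 10 genes were chosen with earlier results of these data known. The other calcium channel subunit genes described below were divided. Their share was higher in DS cells for *Cacnb1*, *Cacng2* and *Cacng5* and lower for *Cacna1f*, *Cacna1h* and *Cacna2d4*. The rest of that list were detected in neither class. Of the 10 genes, the DS cells had a median of 3 each with a range from 1 to 4. The alpha cells had a median of 1 with a range from 0 to 3, so the classes overlapped. Each of the ON alpha and OFF S alpha cells had exactly 1. The difference of 16.4 percentage points ran from 14.6 to 18.9 when each cell was left out in turn. Without ON-OFF DS 8, 7 genes had the higher share in DS cells and 1 the lower.

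Library depth was matched by keeping the 19 cells with 2284 to 3588 detected genes. Among them 16 of 60 pairs were detected in 6 DS cells (26.7%), 4 of 50 in 5 alpha cells (8.0%) and 17 of 80 in 8 other cells (21.2%). Over the 10004 genes the shares in these cells were 31.2% in DS, 30.1% in alpha and 28.3% in other cells. Of the 10 genes, 7 then had a higher share in DS cells and 1, *Cacna1a*, a lower one (2 of 6 against 2 of 5 cells), while 39.1% of the 10004 genes had a higher and 38% a lower share. *Cacna1b* was detected in 3 of 6 matched DS and 0 of 5 matched alpha cells, and *Cacna2d1* in 4 of 6 and 2 of 5. Rod genes were detected more often in alpha than in DS cells, and the shares were therefore also read within each set of cells. Among cells with 5 or more rod genes, 8 of 30 pairs were detected in 3 DS cells (26.7%) and 6 of 60 in 6 alpha cells (10%), against 31.8% and 26.9% over the 10004 genes. Among cells with 0 to 4 rod genes, 14 of 50 were detected in 5 DS cells (28%) and 4 of 30 in 3 alpha cells (13.3%), against 26.3% and 34.6%. The share was higher in DS than in alpha cells among the matched cells and in both sets of rod signal. Each of these sets holds only 3 to 6 cells of either class. The part of depth and of rod genes in the difference was not tested.

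**Figure D3:**
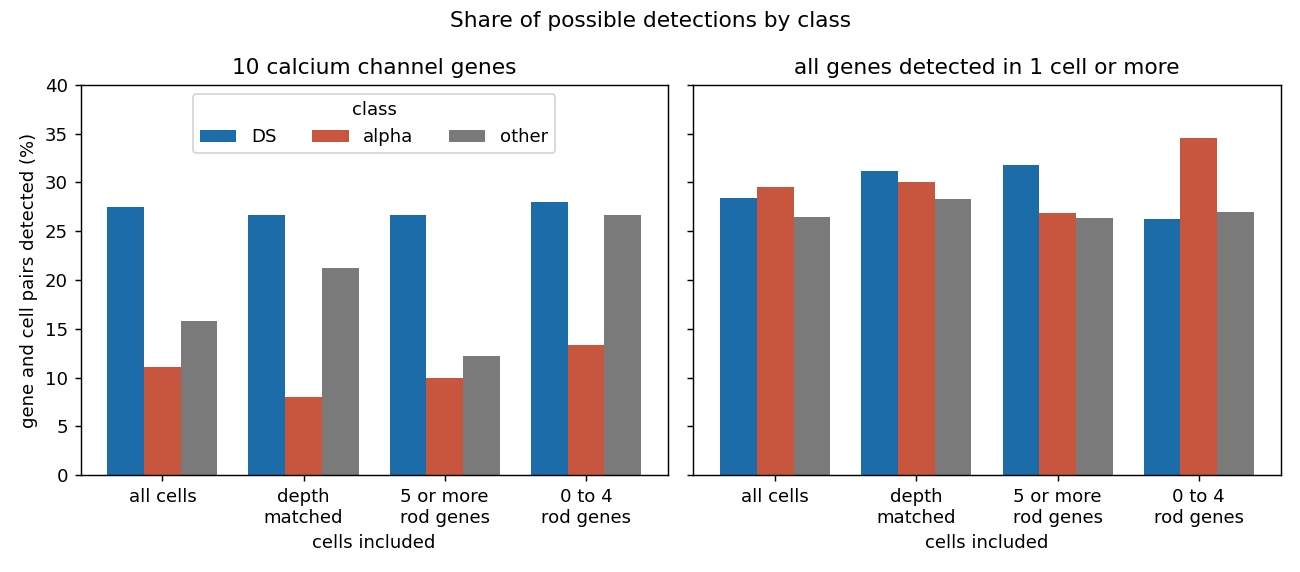
Percentage of gene and cell pairs detected in DS, alpha and other cells for the 10 calcium channel genes (left) and for all 10004 genes detected in at least 1 cell (right), over all cells, the 19 depth-matched cells, and the cells with 5 or more or with 0 to 4 of 9 rod genes. The DS bars on the left lie between 26.7% and 28% and the alpha bars between 8.0% and 13.3%, whereas on the right the classes are closer and change order.

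On the log2 scale a gene was counted as past the fold where the medians of both groups differed by at least 2 units, or 4 times. Of the 10 genes only *Cacna2d1* passed between DS and alpha cells, at 2.19 (medians 12.02 and 9.83, with SDs over cells of 1.72 and 2.57). Of the 7113 genes detected in at least 3 cells, 18.7% passed in this comparison. Only 6 of the 10 genes belong to this background, and 4 (*Cacna1d*, *Cacna1e*, *Cacna1g* and *Cacna2d2*) were detected in too few cells. Counts out of 10 are therefore set beside an unlike set here and below. Read as 1 of 10 or as 1 of 6, the count is no more than the background. Among the 5 DS and 3 alpha cells with 0 to 4 rod genes, 4 of the 10 genes passed (*Cacna1a* at 3.96, *Cacna2d1* at 3.35, *Cacnb4* at 2.65 and *Cacna1b* at -3.86), and so did 32.9% of the background genes. With depth modelled as a straight line the difference of *Cacna2d1* over all cells was 2.04. It fell to 1.62 without OFF S alpha 16, OFF T alpha 17, OFF T alpha 19 or OFF T alpha 20, which left no gene past the fold. *Cacna1a* differed by 1.02 (medians 10.91 and 9.88), and by -1.36 in the depth-matched cells. It reached 2.63 without ON DS 1, ON DS 3, ON-OFF DS 6 or ON-OFF DS 8, and it turned to -0.58 without ON DS 2, ON DS 4, ON-OFF DS 5 or ON-OFF DS 7. For the remaining genes both medians lay at or near the floor, and the differences ran from 0.00 to 0.13.

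Between ON-OFF DS and ON DS cells only *Cacng3* passed, at -3.58 for ON-OFF minus ON (medians 8.55 and 12.13), while 29.2% of the background genes passed. The difference was -3.64 with depth modelled and ran from -3.97 to -3.19 when each cell was left out. ON DS 2 lay at the floor together with the ON-OFF DS cells, so the groups overlapped. *Cacna1a* was at -0.22 and showed no order, since it was -2.80 without ON DS 1 or ON DS 3 and 2.35 without ON DS 2 or ON DS 4. Leaving out a cell also brought in *Cacna1b* (3.35 without ON-OFF DS 6 or ON-OFF DS 8), *Cacna1d* (-2.55 without ON DS 1 or ON DS 4), *Cacna2d2* (2.43 without ON-OFF DS 5 or ON-OFF DS 7) and *Cacnb4* (2.65 without ON-OFF DS 7 or ON-OFF DS 8). The count was then 2 or 3 genes in place of 1. It was 4 in the cells with 0 to 4 rod genes, where 37.9% of the background genes passed, and 6 without a floor, where 47.9% did.

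Between the 7 OFF alpha and 2 ON alpha cells only *Cacna2d1* passed, at -2.99 for OFF minus ON (-2.24 with depth modelled), while 34.2% of the background genes passed. The ON alpha cells lay within the range of the OFF alpha cells. *Cacna1b* was at -1.98 (-0.95 with depth modelled) and rested on ON alpha 12, since it was -3.97 without ON alpha 13, which made 2 genes past the fold, and 0.00 without ON alpha 12. *Cacng3* was at -1.88, and both ON alpha cells lay above all 7 OFF alpha cells, though under the detection threshold. The signals of these subtypes did not overlap for 2.98% of the background genes. Between OFF T alpha and OFF S alpha cells *Cacna1a* (2.34, with 2.06 for depth modelled) and *Cacna2d1* (-3.12, with -3.10) passed, while 33.8% of the background genes did. The *Cacna1a* difference fell to 0.73 without OFF T alpha 17, 1.76 without OFF T alpha 19 and 1.47 without OFF S alpha 16 or OFF S alpha 18. That of *Cacna2d1* was -1.28 without OFF S alpha 14 or OFF S alpha 18. The count was then 1 gene, except without OFF S alpha 18, where it was 0. Both genes overlapped between the subtypes, although the 2 OFF S alpha cells with *Cacna2d1* far exceeded every OFF T alpha cell. These cells, OFF S alpha 14 and OFF S alpha 18, had mean rod signals of 17.11 and 18.10 on the log2 scale, against 9.27 to 13.46 in the OFF T alpha cells, and the part of rod genes in this difference was not tested.

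The number of calcium channel genes per cell had r = 0.30 with the number of genes detected (rho = 0.25, n = 29 cells, r = 0.22 without the 2 cells farthest from the median depth). Signals of *Cacna1a* and *Cacna2d1* each had r = 0.13 with depth and *Cacna1b* had r = 0.39, and cells with *Cacna1b* had a median of 3344.5 detected genes against 2768 in cells without it. Against the rod genes' mean log2 signal the number per cell had r = -0.45 (rho = -0.52), and *Cacna1a* had r = -0.55 (rho = -0.55), *Cacna1b* -0.18 and *Cacna2d1* -0.12. *Cacna1a* was detected in 5 of the 18 cells with 5 or more rod genes and in 7 of the 11 others. The 18 cells had a median of 1 calcium channel gene (25 of 180 pairs, 13.9%) and the 11 others a median of 3 (26 of 110, 23.6%), with median depths of 2943 and 2744. These correlations are descriptions over cells that differ in depth and in rod gene signal at once, and the part of rod genes in the detection of the calcium channel genes was not tested.

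**Figure D4:**
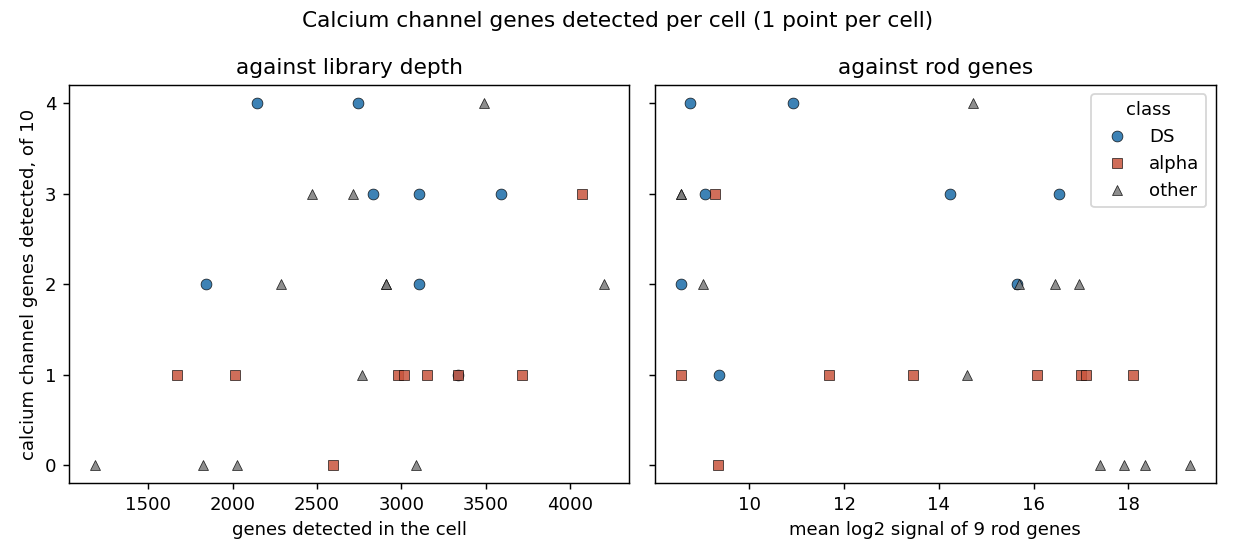
Number of the 10 calcium channel genes detected in each cell against the number of all genes detected (left) and against the mean log2 signal of 9 rod genes (right), with DS, alpha and other cells as circles, squares and triangles. Of the 5 cells with 0 genes, 4 lie at a mean rod signal above 17 and the other, OFF T alpha 20, at 9.33.

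The probe sets of a gene gave different answers about its presence. *Cacna1a* was read at 1459996_at, and its probe set 1450510_a_at was above the threshold in 5 cells, all of them among the 12 (r = 0.88 over the 29 cells), while 1430408_at passed in 1 cell and 1444455_at in 0. For *Cacna1b*, 1460608_at and 1436602_x_at passed in the same 8 cells (r = 1.0). Its other probe sets passed in 1 cell (1425812_a_at) and 2 cells (1439612_at) and added 2 cells, so that 10 cells had the gene by any probe set. The second probe set of *Cacna1c*, 1421297_a_at, passed in 1 of the 5 cells, ON hOS 10. Of the 5 probe sets of *Cacna2d1* only 1433643_at passed in any cell, and the highest signal of the remaining 4 was 2258.5. *Cacna1d* was read at 1427974_s_at, whose suffix marks probes that can match more than 1 transcript, and 1428051_a_at did not exceed 291. *Cacna1g* and *Cacng3* have 1 probe set each, so no second reading exists for them. Where on each transcript these probe sets lie was not analysed here.

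The nearest patterns were sought among 5015 genes detected in at least 6 cells, for the 3 genes detected that often. For *Cacna1a* they were *Phactr3* (r = 0.64, both detected in 7 cells), *B4galt5* (r = 0.60, 9 cells) and *Slc2a13* (r = 0.58, 10 cells). For *Cacna1b* they were *Kat14* (r = 0.82, both detected in 7 cells), *Crebbp* (r = 0.77, 7 cells) and *Wdr36* (r = 0.73, 6 cells). For *Cacna2d1* they were *Tm9sf2* (r = 0.64, 9 cells), *Polb* (r = 0.61, 11 cells) and *Plcxd2* (r = 0.58, 7 cells). *Polb* was detected in all 11 cells with *Cacna2d1* but also in 8 others. Each r was taken over 29 cells that share many floor values, and the highest of 5015 is high by selection.

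Other calcium channel subunit genes were taken from a list of 16, of which 14 had a value. Of these, 6 were detected in 0 cells and 8 in at least 1, with a median of 1.5 cells. By median signal 1 gene was higher and 0 were lower past the fold in DS than in alpha cells, 1 and 2 in ON-OFF than in ON DS cells, 1 and 2 in OFF than in ON alpha cells, and 1 and 2 in OFF T than in OFF S alpha cells. In the same order, 18.7%, 29.2%, 34.2% and 33.8% of the background genes passed in either direction. *Cacng5*, another gamma family gene, was detected in 17 cells, the only gene of this list in 15 or more. It was detected in 6 of 8 DS cells (74.4 to 38845, median 10770.2), 2 of 9 alpha cells (19.7 to 37887, median 99.2) and 9 of 12 other cells (median 23145), and the difference between DS and alpha was 4.84 on the log2 scale (4.83 with depth modelled, 4.71 in matched cells). The DS and alpha ranges overlapped. *Cacna1h*, a T-type pore gene and thus a relative of *Cacna1g*, was detected in 3 of 3 OFF T alpha cells (9146, 19084 and 24839), 1 of 4 OFF S alpha cells, 0 of 2 ON alpha cells, 2 of 4 ON DS cells, 0 of 4 ON-OFF DS cells and 0 of 12 other cells. The difference was 5.67 between OFF T and OFF S alpha, 4.60 between OFF and ON alpha, and -2.27 between ON-OFF DS and ON DS. The single OFF S alpha cell with it, at 68949, exceeded the OFF T alpha cells. *Cacnb1*, a beta subunit gene, reached the threshold in 3 of 4 ON-OFF DS cells, 1 of 4 ON DS cells, 1 alpha cell and 1 other cell, with a difference of 4.48 between ON-OFF DS and ON DS. The single ON DS cell with it, at 273050, exceeded the ON-OFF DS cells, which ran from 14.6 to 40594, so these subtypes overlapped.

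The photoreceptor channel genes, which were set apart after their values were seen, went with the rod genes. *Cacna1f*, the L-type pore of photoreceptor synapses, was detected in 12 cells, all of them among the 18 with 5 or more rod genes and none among the 11 others. *Cacna2d4*, its alpha2delta partner, was detected in 10 of the 18 and 0 of the 11, and *Cabp4*, a calcium-binding regulator of the same channel, in 12 of the 18 and 0 of the 11. At least 1 of these 3 genes was detected in 15 cells and all 3 in 7. *Cacna1f* differed by -3.74 between OFF and ON alpha and by -3.48 between OFF T and OFF S alpha, *Cacna2d4* by -3.89 and -3.34, and *Cacna1f* by -2.05 between ON-OFF and ON DS cells. *Cabp4* differed by -2.31 between ON-OFF and ON DS and by -2.10 between OFF and ON alpha. Past the fold were 29.2% of the background genes between ON-OFF and ON DS cells and 34.2% between OFF and ON alpha. Between OFF T and OFF S alpha 33.8% were. All 4 OFF S alpha cells had 5 or more rod genes, as did 1 of 3 OFF T alpha, 1 of 2 ON alpha, 2 of 4 ON DS and 1 of 4 ON-OFF DS cells. None of the 10 genes studied here showed such a restriction to the rod-gene cells, apart from *Cacna1e*, which was detected in 1 cell. The share of all genes with such a restriction is not given here.

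**Figure D5:**
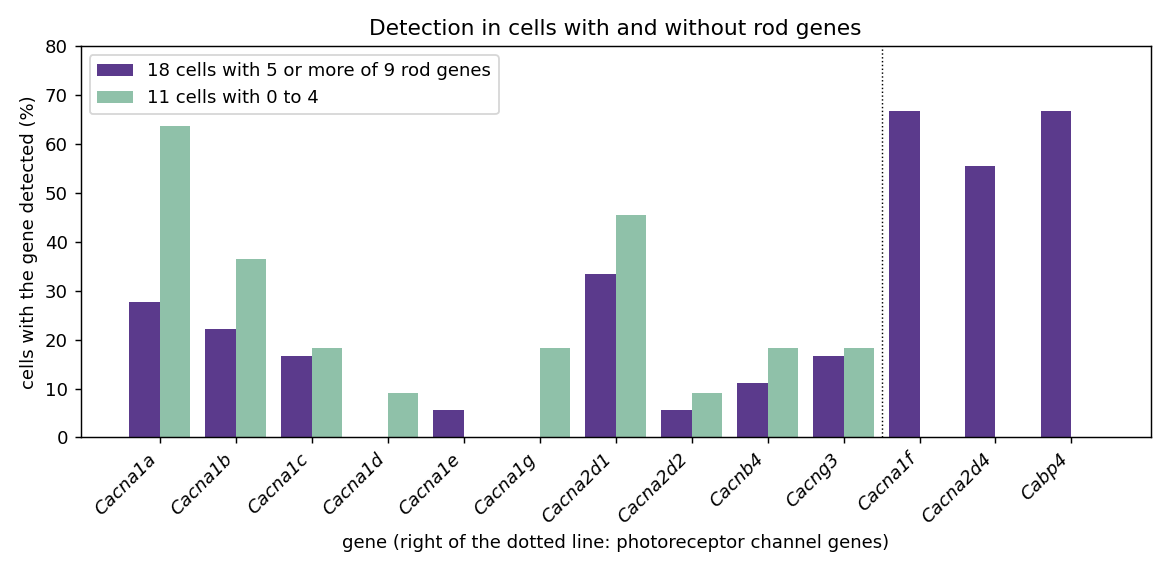
Percentage of cells with each gene detected among the 18 cells with 5 or more of 9 rod genes and the 11 cells with 0 to 4, for the 10 calcium channel genes (left of the dotted line) and for *Cacna1f*, *Cacna2d4* and *Cabp4*. The last 3 genes were detected in 12, 10 and 12 of the 18 cells and in 0 of the 11.

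Channel regulators and partners were read from a list of 20 genes, of which 16 had a value, 10 were detected in at least 1 cell, and the median was 1 cell. Past the fold, 1 was higher and 2 were lower in DS than in alpha cells, 3 and 1 in ON-OFF than in ON DS cells, 0 and 2 in OFF than in ON alpha cells, and 2 and 0 in OFF T than in OFF S alpha cells. The background genes passed at 18.7%, 29.2%, 34.2% and 33.8% in the same order. *Stac2*, an adaptor of L-type channels, was detected in 16 cells, with 7 of 9 alpha cells (9.18 to 48645, median 7155) against 3 of 8 DS cells (17 to 49817, median 682) and a difference of -3.42 for DS minus alpha. *Rims1*, an active zone scaffold that binds calcium channels, was detected in 6 of 9 alpha and 3 of 8 DS cells (-2.55). All 3 of its DS cells were ON-OFF DS, with a difference of 3.95 from ON DS. *Rims2*, its close relative, passed between OFF and ON alpha (-3.63) and between OFF T and OFF S alpha (3.56). *Nalcn*, the sodium leak channel, was detected in 4 of 8 DS cells, 1 of 9 alpha cells and 0 of 12 other cells, with 3.02 for DS minus alpha, 2.39 for ON-OFF minus ON DS, and 2.36 for OFF T minus OFF S alpha. *Stac2* passed between ON-OFF and ON DS too (2.76). In depth-matched cells the DS to alpha difference of *Stac2* was -0.94 and that of *Rims1* -0.74, while that of *Nalcn* was 3.68. The difference of *Rims1* was -1.72, and so no longer past the fold, without ON DS 2, ON DS 3, ON DS 4 or ON-OFF DS 6.

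Of 19 genes of calcium stores, pumps and exchangers, 18 had a value, 14 were detected in at least 1 cell, and the median was 2.5 cells. *Atp2a2*, the pump that fills the endoplasmic reticulum with calcium, was detected in 28 of 29 cells and did not pass in any comparison. The plasma membrane pump genes *Atp2b2* and *Atp2b3* were detected in 22 and 18 cells and the sodium-calcium exchanger gene *Slc8a1* in 15. *Atp2b3* was lower in DS than in alpha cells by median (-3.31, with 3 of 8 and 7 of 9 cells detected), as were *Slc8a1* (-3.07, 3 of 8 and 6 of 9) and *Stim2*, a calcium sensor of the endoplasmic reticulum (-2.86, 2 of 8 and 4 of 9). In depth-matched cells these differences were -2.42, -0.88 and 0.00. That of *Atp2b3* was -1.83 without ON DS 2, ON-OFF DS 5, ON-OFF DS 7 or ON-OFF DS 8, and that of *Stim2* was -1.43 without ON alpha 12, OFF S alpha 14, OFF S alpha 18 or OFF T alpha 20 and -1.88 without OFF T alpha 17. Between ON-OFF and ON DS cells the ryanodine receptor genes *Ryr2* (2.80) and *Ryr3* (2.53), the exchanger gene *Slc8a3* (3.91) and *Stim2* (2.30) passed in 1 direction and *Atp2b3* (-3.71) in the other. Between OFF and ON alpha cells *Atp2b1* (-2.54), *Atp2b3* (-2.26), *Slc8a3* (-2.77) and the store-operated channel gene *Orai1* (-2.14) passed. Of the 2 ON alpha cells only ON alpha 13 had *Atp2b1* (12725 against 13.5), *Orai1* (7334 against 6.63) and *Slc8a3* (5386 against 1266) detected. Between OFF T and OFF S alpha *Atp2b2* (2.17) passed. The background genes passed at 18.7% between DS and alpha and at 29.2% between ON-OFF and ON DS. They passed at 34.2% between OFF and ON alpha and at 33.8% between OFF T and OFF S alpha.

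All 4 AMPA receptor subunit genes had a value, and they are given because *Cacng3* works with these receptors. *Gria4* was detected in 20 cells, *Gria3* in 13, *Gria2* in 4 and *Gria1* in 0. Of the 5 cells with *Cacng3*, 4 had both *Gria3* and *Gria4*. The exception was ON DS 4, which had the highest *Cacng3* signal (65493) but 719 for *Gria3* and 595 for *Gria4*. Both AMPA genes were also detected in cells without *Cacng3*. These included all 4 ON-OFF DS cells, whose *Cacng3* signals ran from 4.22 to 17.3. *Gria3* passed between DS and alpha cells (2.30), between ON-OFF and ON DS (3.88, with 4 of 4 and 2 of 4 cells detected) and between OFF and ON alpha (-4.66). *Gria4* passed between OFF T and OFF S alpha (2.29). In these comparisons, in the order given, 18.7%, 29.2%, 34.2% and 33.8% of the background genes passed. Without the 18 cells with 5 or more rod genes the DS to alpha difference of *Gria3* turned to -1.04.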

How the data were processed

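Each of 29 single RGCs was hybridised to 1 Affymetrix mouse genome array. The deposited values are MAS5 signals per probe set on a linear scale (intensity), which the authors scaled to a common trimmed mean, found here to be 1500 after trimming 2% at each end. Each gene's probe sets were named from GEO's platform annotation, in which 34958 of 45101 probe sets have 1 gene, 932 several and 9211 none. Several-gene probe sets were left out. Detection was set at 2 times the trimmed mean and the log2 floor at 0.25 times it. Shares of cells carry exact 95% Clopper-Pearson intervals. Medians of log2 signal were compared between groups of cells, with depth matched (cells near the median number of detected genes) or modelled by a straight line. The background was the 7113 genes detected in at least 3 cells. Named genes of the other lists were those past the fold of 4 times or detected in at least 15 cells, the remaining AMPA receptor subunits were named to complete that family, and the photoreceptor channel genes were set apart after their values were seen. For each gene in at least 6 cells, the nearest patterns were the 3 highest correlations. Groups came from the physiological property in the labels and cell numbers from the sample titles. No test was made, since the labels name no animal. Precision is limited by how many arrays there are. The calcium channel genes and the gene lists were chosen with earlier results of these data known. Alternatives were detection at 1 and 4 times the mean, other floors, the highest probe set, quantile normalisation, each cell left out, and, added after seeing the data, only the cells with 0 to 4 rod genes. Scripts were tested on simulated data. Python 3.11.15, numpy 2.4.6, pandas 2.3.3, scipy 1.17.1 and matplotlib 3.10.9 were used.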

Additional observations from a re-analysis of the deposited data

Results flagged for a closer look

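In 12 of 39 groups of 4 to 9 cells that were checked, 1 cell stood apart from the rest by Dixon's ratio of the gap to the range on the log2 scale. Chance alone sets a cell apart in about 5% of such groups, but here most other cells of a group lay at the floor, so that 1 cell above it gave the highest ratio possible. Among ON DS cells these were ON DS 3 for *Cacna1b* (9668) and ON DS 4 for *Cacnb4* (3704). Among ON-OFF DS cells they were ON-OFF DS 8 for *Cacna1c* (27446) and ON-OFF DS 7 for *Cacna1d* (1820.5). Among OFF S alpha cells they were OFF S alpha 15 for *Cacna1b* (447.5) and *Cacna1g* (2351), and OFF S alpha 14 for *Cacna2d2* (2796) and *Cacng3* (1275). OFF S alpha 14 also stood apart for *Cacna2d2* among all 9 alpha cells (2796). In the same class OFF T alpha 19 stood apart for *Cacna1c* (881) and OFF S alpha 16 for *Cacnb4* (38099.8). Among the 8 DS cells it was ON-OFF DS 8 for *Cacna1g* (17907).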

How the results depend on the processing

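No paired analysis was possible because the cells carry only a number of their own and no test was run. The median number of calcium channel genes per cell stayed between 1 and 3 under every alternative. The count detected in 15 or more of the 29 cells, or as large a share of those kept, was 1 in place of 0 with detection at 1 times the trimmed mean and in the 11 cells with 0 to 4 rod genes. With the floor at the trimmed mean, 0 genes were past the fold in each of the 4 comparisons. Of the background genes, 8.28% then passed between DS and alpha and 13.4% between ON-OFF and ON DS. Between OFF and ON alpha 14.6% passed, and between OFF T and OFF S alpha 18.3%. Without a floor, 6 genes passed between ON-OFF and ON DS, 6 between OFF and ON alpha, and 6 between OFF T and OFF S alpha cells, where 47.9%, 48.4% and 55.5% of the background genes did. Reading the highest probe set gave 2 between ON-OFF and ON DS and 2 between OFF and ON alpha. Of the background genes, 30% and 34.3% then passed in these comparisons. Quantile normalisation gave 0 between OFF and ON alpha and 1 between OFF T and OFF S alpha (29.7% and 30.7% of the background genes). Without the rod-gene cells 4 passed between DS and alpha and 4 between ON-OFF and ON DS (32.9% and 37.9% of the background genes), and the *Gria3* difference between DS and alpha cells reversed to -1.04. With each cell left out, the counts ran from 0 to 2 between DS and alpha, 2 to 3 between ON-OFF and ON DS, 1 to 2 between OFF and ON alpha, and 0 to 2 between OFF T and OFF S alpha. With all cells kept, the background shares in the same order were 18.7%, 29.2%, 34.2% and 33.8%. The difference in detected share between DS and alpha cells, 16.4 points, ran from 9.3 with detection at 4 times the mean to 19.3 at 1 times. The cause of these changes was not tested.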
